A study of Mus musculus with 6 samples.

Results

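The 9 laminin chain genes Lama1, Lama2, Lama3, Lama4, Lama5, Lamb1, Lamb2, Lamb3 and Lamc1 were followed through the list of WT-specific H3K9me3 peaks of Bergmann glia (BG), radial astrocytes whose cell bodies sit beside the Purkinje cells of the cerebellum. Members were the peaks for which the list gave 1 of these symbols as the gene with the nearest transcription start site (TSS). They came to 16 of the 34673 peaks in the list and belonged to 8 of the 9 genes. A peak called WT-specific here was one that the study found in WT BG and not in BG lacking Setdb1.

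H3K9me3 was measured by ChIP-seq in BG of C57BL/6 mice at postnatal day 10, in 2 mutant, 2 WT and 2 control libraries. The mutant BG (MT in the labels) had lost Setdb1 through a floxed allele and mGFAP-Cre, a driver that is active in most neural cells of the cerebellum other than Purkinje cells. The study's methods describe BG as sorted by a GFP reporter driven from Nestin, and nothing in the sources used here says that both libraries of a genotype came from separate animals. The control libraries carry input in their titles and IgG as their antibody. The deposited list holds 1 position, 1 annotation and 1 score per peak over merged libraries, with no value per library, so the depth is unknown and no difference between mutant and WT BG could be tested. Every value below is a count, a share or a median over peaks, and the 95% Wilson intervals beside shares cover counting error only. The identity of the cells could not be checked against BG markers, because the list holds no expression values.

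Laminins are large secreted proteins in which an alpha, a beta and a gamma chain join into a cross-shaped trimer, and they form the first sheet of a basement membrane. BG send radial fibers to the pial surface, where their endfeet attach to such a laminin-rich membrane through integrins and dystroglycan. SETDB1 is a histone methyltransferase that writes H3K9me3, a mark of silent chromatin that is best known from transposable elements. TTGGCA, which reads TGCCAA on the other strand, is a short recognition motif of the nuclear factor I (NFI) family, and Nfix of that family was the transcription factor examined in the study.

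The peaks whose sequence bears on the descriptions below were read from mm10 on the strand of each gene. At Lama2, the peak over the first exon ran through promoter, exon and intron, and its 3 pieces outside the untranslated part of exon 1 are shown with each CpG in capitals. The piece before the TSS (chr10:27616943-27617027, minus strand, 85 bases) held no CpG, the coding piece of exon 1 (chr10:27616697-27616796, 100 bases) held 8, and the piece of intron 1 (chr10:27616527-27616696, 170 bases) held 5.

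Lama2 before the TSS: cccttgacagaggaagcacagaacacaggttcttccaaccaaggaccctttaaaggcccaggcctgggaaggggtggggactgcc
Lama2 exon 1, coding: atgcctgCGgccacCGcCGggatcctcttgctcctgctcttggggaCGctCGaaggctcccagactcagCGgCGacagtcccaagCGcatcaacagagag
Lama2 intron 1: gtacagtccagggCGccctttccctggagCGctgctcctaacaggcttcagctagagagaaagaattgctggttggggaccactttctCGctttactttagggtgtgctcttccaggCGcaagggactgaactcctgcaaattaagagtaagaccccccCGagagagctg

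The other Lama2 peak lay on a LINE element of the L1Md_A family far upstream of the gene and had the highest score of the 16. The central 300 bases of this peak (chr10:27825560-27825859, minus strand) held 15 CpG, again in capitals. This stretch was chosen after its score was seen.

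Lama2 upstream L1Md_A: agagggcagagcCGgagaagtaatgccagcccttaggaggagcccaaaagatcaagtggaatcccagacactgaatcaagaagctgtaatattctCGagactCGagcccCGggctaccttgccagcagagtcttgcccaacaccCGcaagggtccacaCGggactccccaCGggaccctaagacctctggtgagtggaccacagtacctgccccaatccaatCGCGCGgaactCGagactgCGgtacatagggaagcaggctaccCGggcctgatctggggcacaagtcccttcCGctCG

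At Lama5, whose peak was centred on a B1 SINE, the capitals mark the 109 bases that the RefSeq assembly masks as repeat within the central 300 bases (chr2:180213383-180213682, minus strand).

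Lama5 intron 2: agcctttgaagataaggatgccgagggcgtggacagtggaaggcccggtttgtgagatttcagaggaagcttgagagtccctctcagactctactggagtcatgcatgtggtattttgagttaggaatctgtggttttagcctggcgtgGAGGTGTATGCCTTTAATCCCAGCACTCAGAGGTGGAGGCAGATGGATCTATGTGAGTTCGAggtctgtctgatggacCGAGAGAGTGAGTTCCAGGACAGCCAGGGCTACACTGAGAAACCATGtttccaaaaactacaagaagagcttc

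For Lama1, Lamb1 and Lamc1, the stretch that holds a TTGGCA match is shown, with the match in capitals. The Lama1 stretch (chr17:67818468-67818718, plus strand) crosses from intron 60 into coding exon 61. The Lamb1 stretch (chr12:31289342-31289591, plus strand) starts at coding exon 12, which is in capitals too, and its match lies in intron 12. The Lamc1 stretch (chr1:153324518-153324768, minus strand) lies in intron 1.

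Lama1 intron 60 and exon 61: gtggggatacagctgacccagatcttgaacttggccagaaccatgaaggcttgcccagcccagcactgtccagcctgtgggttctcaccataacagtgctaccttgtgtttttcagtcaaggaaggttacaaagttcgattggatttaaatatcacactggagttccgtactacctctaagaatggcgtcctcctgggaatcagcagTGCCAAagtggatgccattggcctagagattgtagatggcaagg
Lamb1 exon 12 and intron 12: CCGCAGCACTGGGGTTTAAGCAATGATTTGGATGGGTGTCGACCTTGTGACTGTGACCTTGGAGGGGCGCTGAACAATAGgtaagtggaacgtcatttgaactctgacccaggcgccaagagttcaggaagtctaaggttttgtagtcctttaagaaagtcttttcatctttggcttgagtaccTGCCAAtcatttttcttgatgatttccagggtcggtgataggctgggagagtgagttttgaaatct
Lamc1 intron 1: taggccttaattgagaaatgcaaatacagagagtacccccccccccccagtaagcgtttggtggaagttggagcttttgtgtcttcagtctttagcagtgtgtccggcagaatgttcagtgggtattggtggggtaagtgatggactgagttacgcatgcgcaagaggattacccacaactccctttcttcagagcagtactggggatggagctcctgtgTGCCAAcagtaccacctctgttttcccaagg

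The 5 alpha chain genes had 13 of the 16 peaks, the 3 beta chain genes had 2 and the gamma chain gene Lamc1 had 1. The alpha chain genes also make up 83.5% of the summed length of the 9 genes, and their bodies held 1.08 peaks per 100 kb, against 1.26 in the beta and gamma chain genes. Lama3 had 6 peaks, Lama1 had 3 and Lama2 had 2. Lama4, Lama5, Lamb1, Lamb3 and Lamc1 had 1 each, and Lamb2 had none. A gene with a peak was common in the list: 8 of 9 laminin chain genes (88.9%, 56.5 to 98.0) had 1, against 49.1% of all 21774 protein-coding genes and 70.2% of the 4935 protein-coding genes of 50 kb or longer. The share of laminin chain genes therefore has to be read against the share among long genes, which lay inside its interval.

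**Figure D1:**
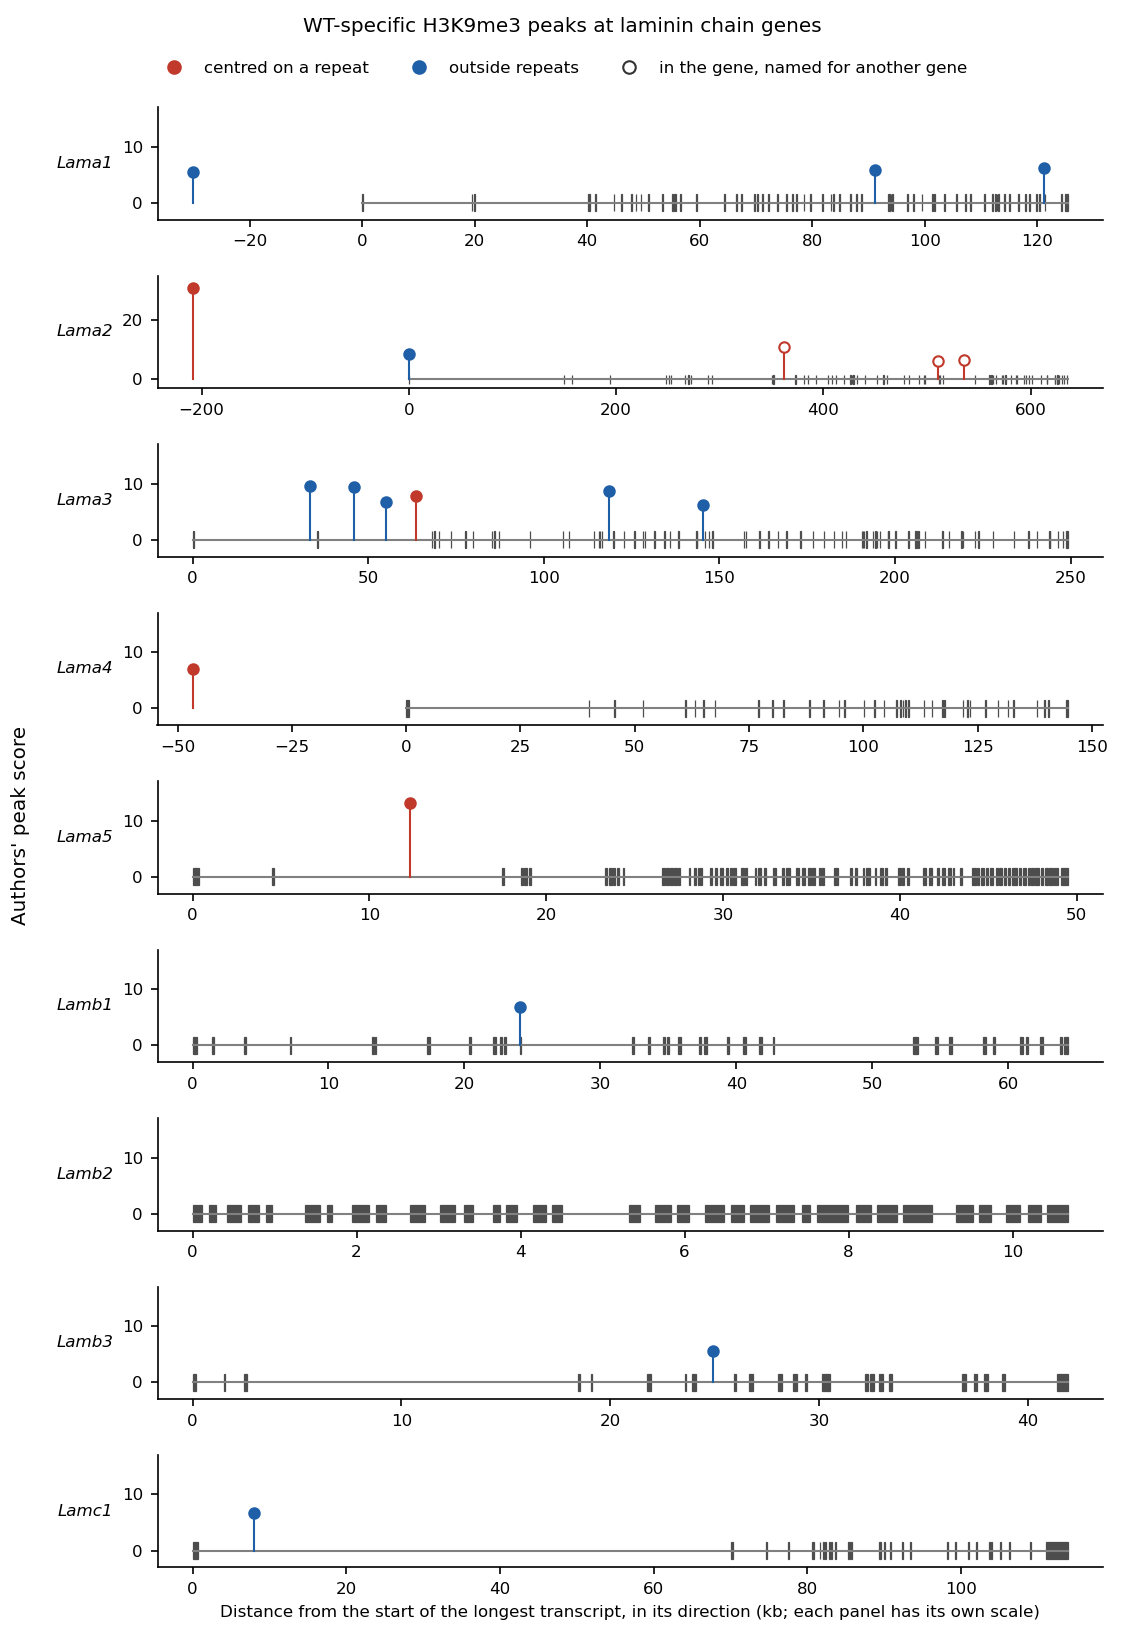
Peaks along the 9 laminin chain genes. Each panel is 1 gene with its exons as dark blocks, the x axis is the distance in kb from the start of its longest RefSeq transcript in the direction of transcription, and the height of a stem is the authors' peak score. Filled points are peaks named for the gene and open points are peaks in the gene that the list names for another gene, with red for peaks centred on a repeat. Lama3 has 6 peaks in introns, the highest stem (30.8) stands 209 kb upstream of Lama2, and the panel of Lamb2 is empty.

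Lama1 encodes the alpha1 chain, which is prominent in early embryonic basement membranes and in the pial membrane of the brain. Its gene spans 126 kb on chromosome 17. One peak lay 30.2 kb upstream of the TSS (chr17:67666845-67667345), was classed as intergenic and had a score of 5.46. The others lay 91.2 kb downstream of the TSS in intron 36 of 62 (chr17:67788216-67788716, score 5.78) and 121 kb downstream in intron 60 of 62 (chr17:67818218-67818718, score 6.1). None of the 3 was centred on a repeat. Their scores sat low in the list, since 99.2%, 94.7% and 83.4% of all peaks scored at least as high. Although the list classed the last peak by its centre as intronic, it also covered all 134 bp of coding exon 61 (67818584 to 67818717), and the TTGGCA match shown above (67818675) lay in that exon. A peak named for Arhgap28 stood 4.49 kb past the end of Lama1 and scored higher (8.99) than any of the 3.

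Lama2 encodes the alpha2 chain of merosin, the laminin of muscle and peripheral nerve that is lost in a congenital muscular dystrophy, and it also occurs where astrocytes meet vessels and the pia. It had both the peak nearest to a TSS and the peak farthest from one among the 16. The near peak (chr10:27616527-27617027) was centred 165 bp downstream of the TSS in exon 1, outside repeats, with a score of 8.66 that 24.4% of all peaks reached or passed. It covered all 246 bp of exon 1, of which 100 bp are coding, and held 18 CpG. Its GC content of 60.7% was high beside the medians of 52.7% over the 16 peaks and 49.1% over the list. The Lama3 peak in intron 18 had the same GC content, with 3 CpG. Peaks classed as exonic made up 2.91% of the list (1009 peaks), and in 123 of those the exon was the first.

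The far peak of Lama2 (chr10:27825329-27826089, 760 bp) lay 209 kb upstream, in intergenic DNA on an L1Md_A element. L1Md_A is a young LINE family of the mouse that still holds mobile copies. The score of 30.8 was the highest among the 370 peaks of the list centred on L1Md_A, whose median was 6.42, and it stood at rank 161 of all peaks (0.473% at or above it). This was the 1 laminin peak in the top 1% of the list. It was also the richest of the 16 in CpG (33), and 94.3% of its bases were masked as repeat. Lama2 was the nearest protein-coding gene despite the distance, and the nearest other peak, named for Ptprk, was 77.7 kb away.

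Lama2 is by far the longest of the genes at 636 kb, and 3 more peaks lay inside it under another name. These were in intron 40, intron 37 and intron 14 of 63 and were given to 4930579H20Rik. All 3 were centred on LINE elements, namely Lx3_Mus (score 6.42), L1_Mus1 (6.1) and L1Md_T (10.9). Counted by the gene body instead of the nearest TSS, Lama2 therefore held 4 peaks, or 0.629 per 100 kb.

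Lama3 encodes the alpha3 chain, which joins with the beta3 chain in the laminin that anchors the epidermis. Its 6 peaks were the most of any laminin chain gene, a number reached by 4.57% of all protein-coding genes (995 genes). All 6 lay in introns of the 250 kb gene on chromosome 18. The first was in intron 1 of 74 (chr18:12367064-12367564), 33.3 kb downstream of the TSS, with a score of 9.63. The next 3 were all in intron 2, at 45.8 kb (chr18:12379487-12380142, score 9.31), 54.9 kb (chr18:12388629-12389274, score 6.74) and 63.5 kb (chr18:12397245-12397745, score 7.7). The peak at 63.5 kb was centred on a LINE element, Lx, and the other 5 on no repeat.

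The 4 peaks in introns 1 and 2 of Lama3 fell within 30.2 kb of each other, centre to centre. The remaining peaks were in intron 18 (chr18:12452163-12452663, score 8.66) and intron 29 (chr18:12478962-12479462, score 6.1). For these the list took a later start site of the gene, 170 kb downstream of the first, so that it placed them 51.8 kb and 25.0 kb upstream of a TSS although they lie 118 kb and 145 kb into the longest transcript. Neighbouring peaks of Lama3 were 8.54 to 54.9 kb apart, and the 6 together spanned 112 kb. Scores of the Lama3 peaks had a median of 8.18, and 4 of the 6 were at or above the median of the list.

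Lama4 encodes the alpha4 chain, a laminin chain of blood vessel walls. Its 1 peak was intergenic, 46.7 kb upstream (chr10:38918521-38919021), on a LINE element of the L1Md_F2 family. The score of 7.06 equalled the median of the list and was near the median of 6.74 among the 790 peaks centred on L1Md_F2. No peak lay in the 145 kb of the gene itself.

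Lama5 encodes the alpha5 chain, the most widespread alpha chain of adult basement membranes. Its peak (chr2:180213068-180213997) was in intron 2 of 78, 12.3 kb downstream of the TSS, and at 929 bp was the widest of the 16. The score of 13.2 was the second highest of the laminin peaks, and 6.2% of all peaks reached or passed it. It was centred on a B1_Mur3 element, a SINE, and ranked behind 2 of the 50 peaks of the list on that element, whose median was 7.06 and whose highest score was 14.8.

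Among the beta chain genes, Lamb1 and Lamb3 had 1 peak each. Lamb1 encodes the beta1 chain that most laminins of the embryo carry. Its peak (chr12:31289114-31289614, score 6.74) was centred on exon 12 of 33, an 80 bp coding exon (31289342 to 31289421) 24.1 kb downstream of the TSS, outside repeats. The next peak of the list was 154 kb away. Lamb3 encodes the beta3 chain, the partner of alpha3 in the epidermis. Its peak (chr1:193326657-193327157) lay in intron 8 of 22, 24.7 kb downstream of the TSS, and its score of 5.46 tied with the upstream Lama1 peak as the lowest of the 16.

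Lamb2 encodes the beta2 chain, known from the kidney filter and the neuromuscular junction. It had no peak, and at 10.7 kb it is the shortest of the 9 genes. The peak nearest to it was 6.11 kb past its end, in exon 16 of Usp19, with a score of 7.06. In the tenth of protein-coding genes closest to Lamb2 in length (7.44 to 11.7 kb), 42.0% had a peak. Absence from the list does not show that Lamb2 lacked H3K9me3, because a region marked alike in mutant and WT BG would not be listed either.

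Lamc1 encodes the gamma1 chain, which most laminins share. Its peak (chr1:153324518-153325018) was in intron 1 of 27, 8.02 kb downstream of the TSS, with a score of 6.74 and no repeat at its centre. After the exon 1 peak of Lama2 it was the closest to a TSS. The TTGGCA match shown above (153324543) lay near the downstream end of the peak, and 55.7% of its bases were masked as repeat.

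**Figure D2:**
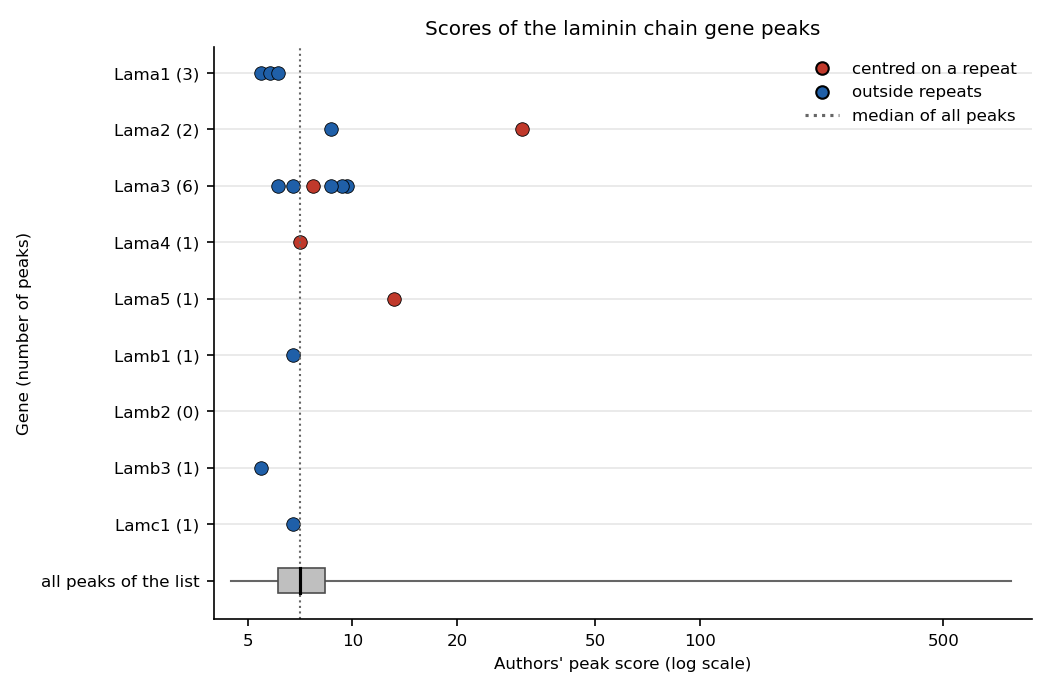
Authors' peak scores of the 16 laminin peaks by gene, on a log scale, beside the scores of all 34673 peaks (box from the lower to the upper quartile, 6.1 to 8.34, with the median of 7.06 and a line from 4.49 to 784.3). The 2 points above 10 are peaks of Lama2 (30.8) and Lama5 (13.2), both centred on repeats, and the other 14 lie between 5.46 and 9.63.

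In position, the laminin peaks were mostly peaks inside genes. Of the 16, 11 were classed as intronic (68.8%, 44.4 to 85.8), 2 as exonic (12.5%, 3.5 to 36.0) and 3 as intergenic (18.8%, 6.59 to 43.0). Of all peaks, 34.2% were intronic, 2.91% exonic and 59.4% intergenic. Lama3 alone gave 6 of the 11 intronic peaks, which the intervals treat as independent. Without Lama3, 5 of 10 laminin peaks were intronic (23.7 to 76.3%) and 3 of 10 intergenic (10.8 to 60.3%). Both intervals held the shares over all peaks. The exonic interval without Lama3 (5.67 to 51.0%, 2 of 10 peaks) did not hold the share of 2.91%. Among peaks in introns and exons only, 2 of 13 laminin peaks were exonic (15.4%, 4.33 to 42.2). Of all such peaks 7.84% were exonic, a share inside that interval. No laminin peak was classed as promoter or as transcription termination site, classes that held 0.805% and 1.29% of all peaks. The 13 peaks in introns and exons all lay inside the gene they were named for, and the 3 intergenic peaks, at Lama1, Lama2 and Lama4, were all upstream. The median distance from the TSS was 39.5 kb over the laminin peaks (0.165 to 209 kb) and 37.4 kb over all peaks. Within 10 kb of a TSS there were 2 of the 16 laminin peaks (12.5%), at Lama2 and Lamc1, against 19.4% of all peaks.

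Repeats were at the centre of 4 laminin peaks (25.0%, 10.2 to 49.5) and of 54.0% of all peaks. The 4 were the LINE elements at Lama2, Lama3 and Lama4 and the SINE at Lama5. LINE elements accounted for 18.8% of the laminin peaks and 16.6% of all peaks, and SINE elements for 6.25% and 8.05%. An LTR element, the class to which endogenous retroviruses belong, was at the centre of 0 of 16 laminin peaks, which allows a share of up to 19.4%, and of 26.6% of all peaks. Because most of the laminin peaks were in genes, these shares were also taken over peaks in introns and exons. A repeat of any class was then at the centre of 2 of 13 laminin peaks (15.4%, 4.33 to 42.2). In the list it was at the centre of 41.0% of the 12871 such peaks, a share inside the laminin interval. An LTR element was at the centre of 0 of 13, which allows up to 22.8%. It was at the centre of 16.9% of those in the list, a share inside the laminin interval. The median share of bases masked as repeat was 24.4% in the laminin peaks and 29.75% in all peaks. Within introns and exons it was 18.58% in the laminin peaks and 17.56% in all such peaks.

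The scores of the laminin peaks spread around the middle of the list. Their median was 6.9 (5.46 to 30.8), against 7.06 over all peaks. At or above that list median were 8 of 16 laminin peaks (50.0%) and 51.7% of all peaks, and 2 of 16 (12.5%) and 13.8% had a score of 10 or more. Width was alike too, with 75.0% of the laminin peaks and 77.1% of all peaks at 500 bp. The median GC content was 52.7% in the laminin peaks and 49.1% in all peaks, but within introns and exons the order turned, with 49.1% in the laminin peaks and 50.0% in all such peaks. The median number of CpG per 100 bp was 1.4 in the laminin peaks and 1.2 in all peaks, and 1.4 in both within introns and exons. Within introns and exons the median score was 6.74 over the laminin peaks and 7.06 over all such peaks, and the median distance from the TSS was 33.3 kb over the laminin peaks and 24.7 kb over all such peaks. These are descriptions with no test.

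The TTGGCA motif was present in 4 laminin peaks (25.0%, 10.2 to 49.5), those of Lama1 in intron 60, Lama3 in intron 2 at 45.8 kb, Lamb1 and Lamc1. It was present in 29.1% of the 34600 peaks that could be read from the assembly. Among 500 bp peaks, where width cannot add matches, it was in 3 of 12 laminin peaks and in 26.4% of all such peaks, and within introns and exons it was in 4 of 13 laminin peaks (30.8%, 12.7 to 57.6) and in 28.2% of all such peaks. The full NFI palindrome, searched as TTGGC and GCCAA with 5 bases between them, was in none of the 16 laminin peaks and in 13 of all peaks (0.0376%). These are matches of letters and say nothing about binding.

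**Figure D3:**
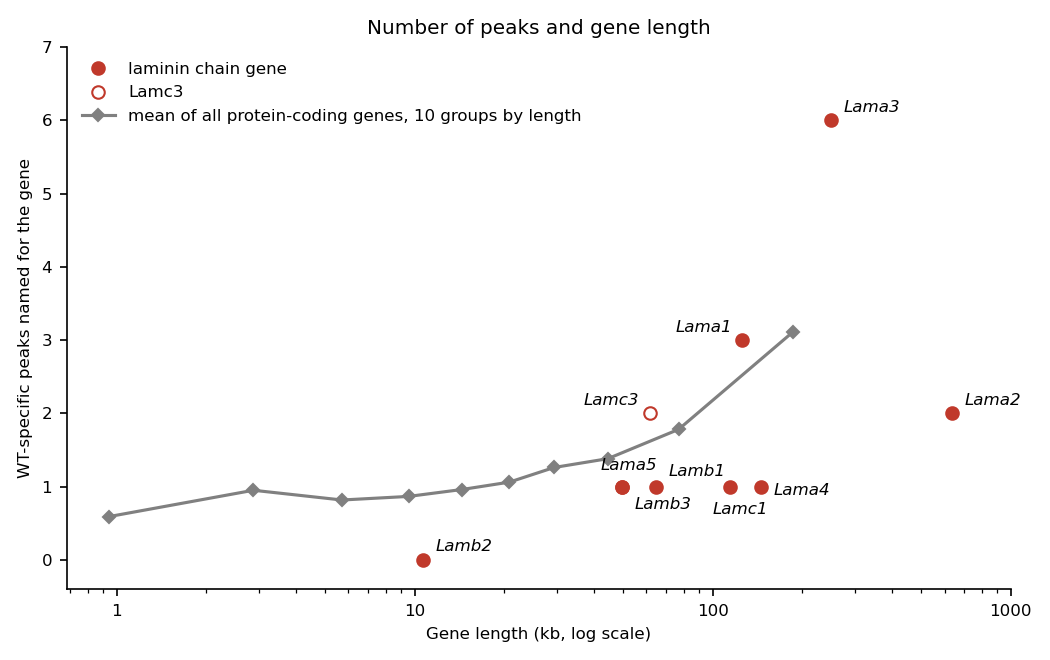
Number of WT-specific peaks named for each laminin chain gene (filled points) and for Lamc3 (open point) by gene length on a log scale, with the mean over all protein-coding genes in 10 groups of equal size by length (grey). Lama3 with 6 peaks lies above the mean of 3.11 in the longest group and Lama2 with 2 peaks below it, and the points of Lama5 and Lamb3 coincide.

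Peak number went with gene length across the whole list. In the tenth of protein-coding genes that were longest (109 kb or more), 79.5% had a peak, with a mean of 3.11 peaks. Lama1, Lama2, Lama3, Lama4 and Lamc1 are all of that length and had 3, 2, 6, 1 and 1 peaks. Lama5 and Lamb3, both 49.5 kb long, belong to a length group with a mean of 1.38 peaks, and Lamb1, at 64.5 kb, to one with a mean of 1.78. Counted over gene bodies whatever name the list gave, 7 of the 9 laminin chain genes held a peak, against 31.2% of all protein-coding genes. The 9 genes are long, with a median of 114 kb, and the share over gene bodies among long genes was not taken. The 9 bodies held 16 peaks over 1.44 Mb, which is 1.11 per 100 kb, against 1.35 per 100 kb over all protein-coding genes and 1.27 per 100 kb over the genome. Among the 9 genes the density was highest in Lama3 (2.4 per 100 kb), followed by Lama5 and Lamb3 (2.02 each, from 1 peak).

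Lamc3, which encodes the gamma3 chain, is not among the 9 but belongs to the family. It was named for 1 peak 15.2 kb upstream of its TSS (score 5.78, on MamRep1151) and 1 in intron 7 of 27 (score 6.74), and 2 more in its introns were named for Aif1l (11.9 and 7.06). The 61.8 kb body of Lamc3 held 3 peaks, or 4.85 per 100 kb, a higher density than in any of the 9 genes.

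**Figure D4:**
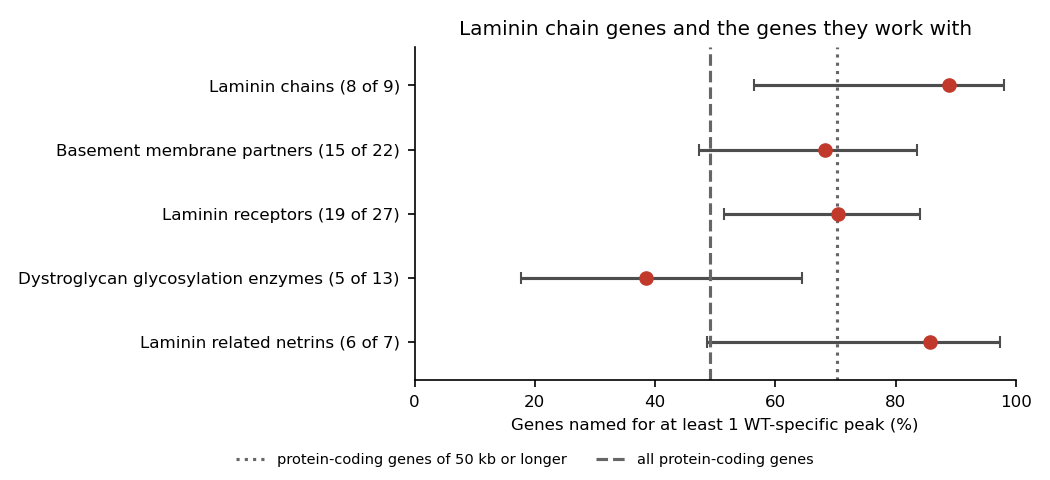
Share of genes named for at least 1 WT-specific peak among the laminin chain genes and the lists of genes they work with, as points with 95% Wilson intervals. The dotted line is the share among protein-coding genes of 50 kb or longer (70.2%) and the dashed line the share among all protein-coding genes (49.1%). Laminin chains stand at 88.9% and dystroglycan glycosylation enzymes at 38.5%, and all 5 intervals are wide. Naming is by the nearest TSS. Counted over gene bodies, 7 of 13 enzymes and 13 of 27 receptors held a peak, against 31.2% of all protein-coding genes. Both lines in the figure are shares by naming and do not apply to that count.

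Genes that work with laminins in the basement membrane and at the cell surface were counted in the same way. Of 22 basement membrane partners, such as collagen IV, nidogens and perlecan, 15 had a peak (68.2%, 47.3 to 83.6). The collagen genes Col18a1 and Col4a2 had 6 each and Col4a1 had 4, while the bodies of Col18a1, Col4a2 and Col4a1 held 3, 6 and 4. The collagen IV genes Col4a3, Col4a5 and Col4a6 were among the 7 without. So were Nid1, whose product links laminin to collagen IV, and Agrn. Of 27 laminin receptor genes, with integrins, syndecans and the dystrophin complex, 19 had a peak (70.4%, 51.5 to 84.1). The dystrophin complex genes Sgcd with 8, Dtnb with 6 and Sspn with 5 led, but no peak lay over the body of Sspn. All 8 Sgcd peaks and all 6 Dtnb peaks were centred on repeats, as were 4 of the 5 Sspn peaks. Among the collagen genes it was 2 of 6 at Col18a1, 2 of 6 at Col4a2 and 1 of 4 at Col4a1, beside 1 of the 6 Lama3 peaks. Dag1, which encodes dystroglycan, and Itga6, which encodes the alpha6 integrin, had none.

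Of the 13 enzymes that build the laminin-binding sugar of dystroglycan, 5 had a peak (38.5%, 17.7 to 64.5), among them Pomk with 2 and Large2 with 1. Of 7 netrins and related genes that carry laminin-type domains, 6 had a peak (85.7%, 48.7 to 97.4), among them Ntn1 with 3 and Ntn5 with 2. The median gene length was 114 kb in the laminin chain genes and 105 kb in the basement membrane partners. It was 56.0 kb in the receptors, 16.4 kb in the glycosylation enzymes and 105 kb in the netrins and related genes. The part of length in the order of these shares was not tested. A count over gene bodies ordered the lists otherwise, with 13 of 27 receptors and 7 of 13 enzymes holding a peak. By that count it was 7 of 9 laminin chain genes, 15 of 22 basement membrane partners and 6 of 7 netrins and related genes. Of all protein-coding genes, 31.2% held a peak over the gene body, and that share was not taken among genes of like length.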

How the data were processed

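ChIP-seq of BG at postnatal day 10 comprised 2 mutant, 2 WT and 2 control libraries, grouped by their titles. Per the submitters' notes and the methods, the authors used Bowtie2 2.2.8 for alignment to mm10, with a single best location for a read of several matches, and HOMER 4.10.1 to call and annotate peaks. A single location per read can move signal between copies of a repeat. The deposited score of each peak is the authors' value after libraries were merged, on a scale that these sources do not state. The column heading can be read as naming input, mutant BG or both as background, and the sources name different H3K9me3 antibodies.

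From the list, peaks were taken by gene symbol. Gene bodies, lengths and sequences came from RefSeq GRCm38.p6, the assembly that mm10 names, and motifs were counted on both strands (Python 3.11.15, pandas 2.3.3, pysam 0.24.0, scipy 1.17.1). Of the 34395 peaks whose transcript is in this annotation, 91.5% had the listed TSS distance within 2 bp, as did 12 of the 16 laminin peaks. Every peak of the 9 genes was named, and of each other list the 3 genes with most peaks, except a few genes that are not reported here. Where a match lay outside the central 300 bases, the sequence shown runs from the peak's centre, or from its exon, to beyond the match. The members and lists were chosen with earlier results of these data known. Alternatives changed the score threshold, repeats, width, distance and the gene assignment. The motif search was tested on simulated sequences, and the overlap function and the Wilson interval on small constructed cases with known answers. The count over all gene bodies and the TSS distances were not part of that test.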

Additional observations from a re-analysis of the deposited data

How the results depend on the processing

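With a score at or above the list median, 8 laminin peaks in 4 genes remained, and 50.0% were centred on a repeat. With a score of 10 or more, 2 peaks in 2 genes remained (Lama2 and Lama5), of which 50.0% lay inside the gene, 100% were on a repeat and 0.0% held TTGGCA, with a median distance of 111 kb. Of all protein-coding genes, 12.9% had a peak at that score, 31.2% had a peak over the gene body and 30.8% had one with at least 50% of its length there. The other 49 values of these results stayed within 1.5 times the count or within the interval. Of 72 peak numbers of single genes, 23 moved further: Lama1, Lamb1, Lamb3 and Lamc1 had 0 peaks at or above the list median score, Lama3 and Lama4 had 0 at a score of 10 or more, Lama4 and Lama5 had 0 outside repeats, Lama4 had 0 over its body, Lama5 had 0 at 500 bp width, and Lama2 had 1 to 4. No leaving out of a library was possible, because the list holds no value per library. No paired analysis was possible because the list merges the libraries and no result comes from a test. Depth is unknown, so regions below the peak threshold could not be told from unmarked ones.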
